A study of Mus musculus with 32 samples.

Results

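The regions described here were 1390 stretches of mouse oocyte chromatin that carried H3K27me3 in non-growing oocytes 6 days after birth, had no called H3K27me3 shortly before birth or at day 1, and were marked again in growing oocytes at day 7. They were chosen from the H3K27me3 peak list of wild-type (WT) oocytes at postnatal day 6 (P6) as autosomal rows, a row being 1 called stretch, of 5 to under 50 kb that no row of the WT lists of E18.5 (embryonic day) or postnatal day 1 (P1) touched by even 1 bp and that a row of the WT list of postnatal day 7 (P7) did. They made up 4.70% of the 29589 autosomal P6 rows of those widths, out of 71293 autosomal and 75798 rows in that list and 1035144 rows in the 16 lists of the series. The rule used H3K27me3 in these 4 WT lists, so the mark in them is a description of the choice. The 12 lists that the rule did not use were 6 further H3K27me3 lists and 6 lists of H2AK119ub.

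The series profiled ovarian oocytes by CUT&Tag, in which an antibody tethers a transposase to chromatin bearing a mark so that the DNA there is tagged and sequenced, with Drosophila S2 cells mixed in as a spike-in. It held 32 samples in 16 groups of 2, and 1 list was used per group, so no value below has a replicate error and no p-value was computed. The WT groups were E18.5 and P1 oocytes, P6 non-growing oocytes and P7 growing oocytes, each with both marks. The control called PRC2ctrl was EedF/+; Ddx4-Cre and the knockout called PRC2cKO was EedF/-; Ddx4-Cre, both taken as P6 non-growing oocytes with both marks. The control called PRC1ctrl was Ring1-/-; Rnf2F/+; Ddx4-Cre, at P6 and P7 with H3K27me3 alone, and so lacked Ring1 like its knockout. The PRC1cKO genotype is written Ring1-/-; Ring1F/-; Ddx4-Cre in the labels, which names Ring1 where its control has Rnf2, so the floxed gene of that group is given here only as labelled. Ddx4-Cre is active in germ cells, and the peak lists hold no reading of the deleted exons, so the deletions were not checked. Each list came from many oocytes together, so a weaker mark in all cells and a mark in fewer cells cannot be told apart.

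Polycomb group proteins keep developmental genes silent through a pair of complexes. PRC2, with its core subunit EED, methylates lysine 27 of histone H3 to give H3K27me3, and PRC1, with the E3 ligases RING1 and RNF2, ubiquitinates histone H2A to give H2AK119ub. Each complex can be drawn to the mark of the other, so that the marks often lie together. In oocytes H3K27me3 spreads beyond gene starts into wide domains, and at some genes the maternal mark passes into the embryo, where it silences the maternal allele.

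The new regions were narrow by comparison with the rest of the P6 list. Their width ran from 5.000 to 21.57 kb with a median of 6.30 kb (quartiles 5.49 and 7.50 kb), they covered 9.55 Mb together, and 98 (7.05%) were 10 kb or wider. The 22072 rows of the same width limits that were also found at E18.5, P1 and P7, called long-standing below, had a median of 9.42 kb. The total signal per kb, a value of the authors' own, was 4452 at the median in the new regions and 7559.8 in the long-standing rows. These widths and signals follow in part from the rule, because a wide row is more likely to be touched by a row of another list.

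At the lower width limit the narrowest regions taken, both 5000 bp and both on chromosome 4 (starting at 58579554 and 84247386), stood beside rows of 4998 bp on chromosomes 11 and 12 that met every other condition. Without width limits 7938 rows met the rule, of which 6548 were narrower than 5 kb and 0 were 50 kb or wider. P7 rows covered 974 regions (70.1%) from end to end, and 50 regions were covered over less than 50% of their length, the least over 355 bp. The P7 row over a region was mostly much wider than the region, with a median of 16.7 kb, and it was the wider of the pair at 1212 regions (87.2%), by a median ratio of 2.52. The neighbourhood was often marked earlier: an E18.5 or P1 row lay within 1 kb of 76 regions (5.47%), within 5 kb of 447 (32.2%) and within 50 kb of 1262 (90.8%).

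A gene start lay within 1 kb of 193 regions (13.9%, exact 95% binomial interval 12.1 to 15.8%), against 17.9% of all same-width P6 rows. In rows of 5 to 10 kb, to which most regions belong, the order turned, with 13.5% of the regions (11.7 to 15.5%), 11.2% of all rows (10.8 to 11.7%) and 12.8% of long-standing rows. The regions with a start reached 215 of 20665 autosomal protein-coding genes (1.04%). At 159 of the 215 genes the start came from the RefSeq promoter table of GRCm38.p6. At the other 56 an annotated gene end was used, because the gene table gives no strand, so some of those are the 3′ end of the gene. Among starts inside a region were those of Dll1, a Notch ligand (upstream bases chr17:15376933-15377182), Spry2, a feedback inhibitor of receptor tyrosine kinase signalling (chr14:105896820-105897069), Nlgn2, an adhesion protein of inhibitory synapses (chr11:69837785-69838034), Adamts14, a protease that trims procollagen (chr10:61273420-61273669), and Mmp11, a matrix metalloprotease also called stromelysin (chr10:75932503-75932752).

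The 250 bases before those 5 starts are shown because they lay within DNA first called for H3K27me3 at P6. They are written 5′ to 3′ on the gene's strand, which is minus for all 5, from RefSeq (GRCm38.p6), with each CG dinucleotide in capitals.
Dll1: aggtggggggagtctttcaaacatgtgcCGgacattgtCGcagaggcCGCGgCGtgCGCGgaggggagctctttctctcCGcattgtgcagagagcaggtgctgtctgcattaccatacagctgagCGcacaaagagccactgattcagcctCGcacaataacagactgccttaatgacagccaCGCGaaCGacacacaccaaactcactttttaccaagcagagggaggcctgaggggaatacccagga
Spry2: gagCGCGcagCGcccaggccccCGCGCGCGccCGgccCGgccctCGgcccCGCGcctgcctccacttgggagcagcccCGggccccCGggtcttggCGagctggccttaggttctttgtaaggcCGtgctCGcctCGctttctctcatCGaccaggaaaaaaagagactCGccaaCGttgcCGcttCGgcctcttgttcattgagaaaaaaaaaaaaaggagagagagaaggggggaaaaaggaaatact
Nlgn2: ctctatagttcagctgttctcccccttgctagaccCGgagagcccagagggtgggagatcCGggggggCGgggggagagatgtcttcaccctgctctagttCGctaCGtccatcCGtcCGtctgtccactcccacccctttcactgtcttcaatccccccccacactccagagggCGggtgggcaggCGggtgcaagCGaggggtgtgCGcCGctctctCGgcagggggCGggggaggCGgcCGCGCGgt
Adamts14: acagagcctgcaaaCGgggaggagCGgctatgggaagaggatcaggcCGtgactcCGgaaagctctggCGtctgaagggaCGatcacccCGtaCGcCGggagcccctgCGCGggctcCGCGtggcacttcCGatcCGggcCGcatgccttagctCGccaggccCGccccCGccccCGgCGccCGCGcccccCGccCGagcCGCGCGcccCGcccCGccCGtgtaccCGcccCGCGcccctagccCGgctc
Mmp11: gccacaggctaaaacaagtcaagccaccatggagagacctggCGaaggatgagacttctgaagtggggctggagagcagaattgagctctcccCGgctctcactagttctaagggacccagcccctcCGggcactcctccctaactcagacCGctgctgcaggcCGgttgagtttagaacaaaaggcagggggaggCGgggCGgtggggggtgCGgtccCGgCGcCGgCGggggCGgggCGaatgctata

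These 5 stretches held 13 CG dinucleotides at Dll1, 23 at Spry2, 18 at Nlgn2, 35 at Adamts14 and 14 at Mmp11, with a GC content of 56.0% at Dll1 and 76.4% at Adamts14. Over all 188 table promoters (250 bases before to 50 after the start, 148 genes) whose start lay inside a region, the median was 10.0 CG dinucleotides, against 14.0 over 20085 autosomal protein-coding promoters and 9.00 over the promoters in long-standing rows. The counts of all 5 stretches, taken over 250 bases, lay above the median of 10.0, so these 5 are richer in CG than a typical promoter in the regions. CG-rich promoters with 20 or more CG dinucleotides made up 24.5% in the regions and 37.1% of all. CG-poor ones with 3 or fewer made up 14.4% in the regions and 23.1% of all. The letters CACGTG, the E-box bound by MYC-type factors (a palindrome, so the same on both strands), were in 9.04% of the promoters in the regions and 7.89% of all, and GGCGGGAA on either strand, an E2F-type motif, in 1.60% and 2.86%. Promoters in all same-width P6 rows had a median of 9.00 CG dinucleotides, with 25.9% CG-rich and 20.9% CG-poor, so the CG-rich share was close to that of the regions.

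Away from starts, 474 regions (34.1%) lay within a protein-coding gene and 461 (33.2%) lay outside genes of any type, against 26.5% and 38.3% of all same-width P6 rows. The median distance to the nearest start was 34.8 kb, against 35.3 kb for long-standing rows and 86.9 kb for the 3956 same-width rows found at E18.5 and P1 and no longer at P7. In 226 clusters with under 100 kb between neighbours sat 552 of the regions (39.7%), a count that was not made for other rows. Zfp827, a zinc finger gene, lay under the largest cluster, 8 regions at chr8:78974429-79192634. The share of same-width rows that were new regions ran from 3.08% on chromosome 5 to 6.68% on chromosome 11.

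Most new regions were found in the other control lists of H3K27me3. A region is called found in a list when a row of it covers at least 1 bp. At P6, PRC1ctrl had rows at 1073 of the 1390 regions (77.2%, 74.9 to 79.4%), and PRC2ctrl at 1096 (78.8%, 76.6 to 81.0%). The same lists held 92.2% and 96.5% of all same-width WT P6 rows, so the new regions were found again less fully than the P6 rows as a whole, and 923 (66.4%) were found in both. At P7, PRC1ctrl had rows at 1321 (95%, 93.8 to 96.1%), against 91.4% of long-standing rows, which were likewise found at WT P7. All same-width rows stood at 80.8%, but these include rows not found at WT P7, so that gap follows in part from the rule. Of the 317 regions missing from PRC1ctrl at P6, 286 (90.2%) were found in PRC1ctrl at P7, against 52.9% of all same-width rows missing there at P6 and 72.4% of long-standing ones.

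The rows over the regions also changed in extent between P6 and P7 in PRC1ctrl. Their median width was 6.98 kb at P6 (1073 regions) and 13.7 kb at P7 (1321 regions), and they held the whole region in 22.9% and 51.5% of cases. Over all rows of these lists the median width was 5.78 kb at P6 and 4.31 kb at P7. Here and below the widest row over each region was taken, and this was not measured for other classes of rows. The rule asks for a P7 row in WT, and its part in the change was not tested. Within each list rows were also ranked by total signal per kb. In the PRC1ctrl P6 list the median percentile was 49.5 over the regions and 74.4 over long-standing rows. In the PRC1ctrl P7 list it was 70.1 and 69.3. In the PRC1cKO P7 list it was 60 over the regions and 78.8 over long-standing rows. For the WT lists, which the rule used, the medians over the regions were 29.8 at P6 and 74.6 at P7.

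The 168 same-width rows that were equally absent at E18.5 and P1 but not found at WT P7 give the contrast. PRC1ctrl held 53.0% of them at P6 (45.1 to 60.7%) and 19.0% at P7 (13.4 to 25.8%). The 3956 rows marked before birth and gone at WT P7 were found in PRC1ctrl P7 in 22.0% of cases. PRC1ctrl and WT share no samples, so the PRC1ctrl P7 list separates the kept from the lost rows without having been used to choose them.

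**Figure D1:**
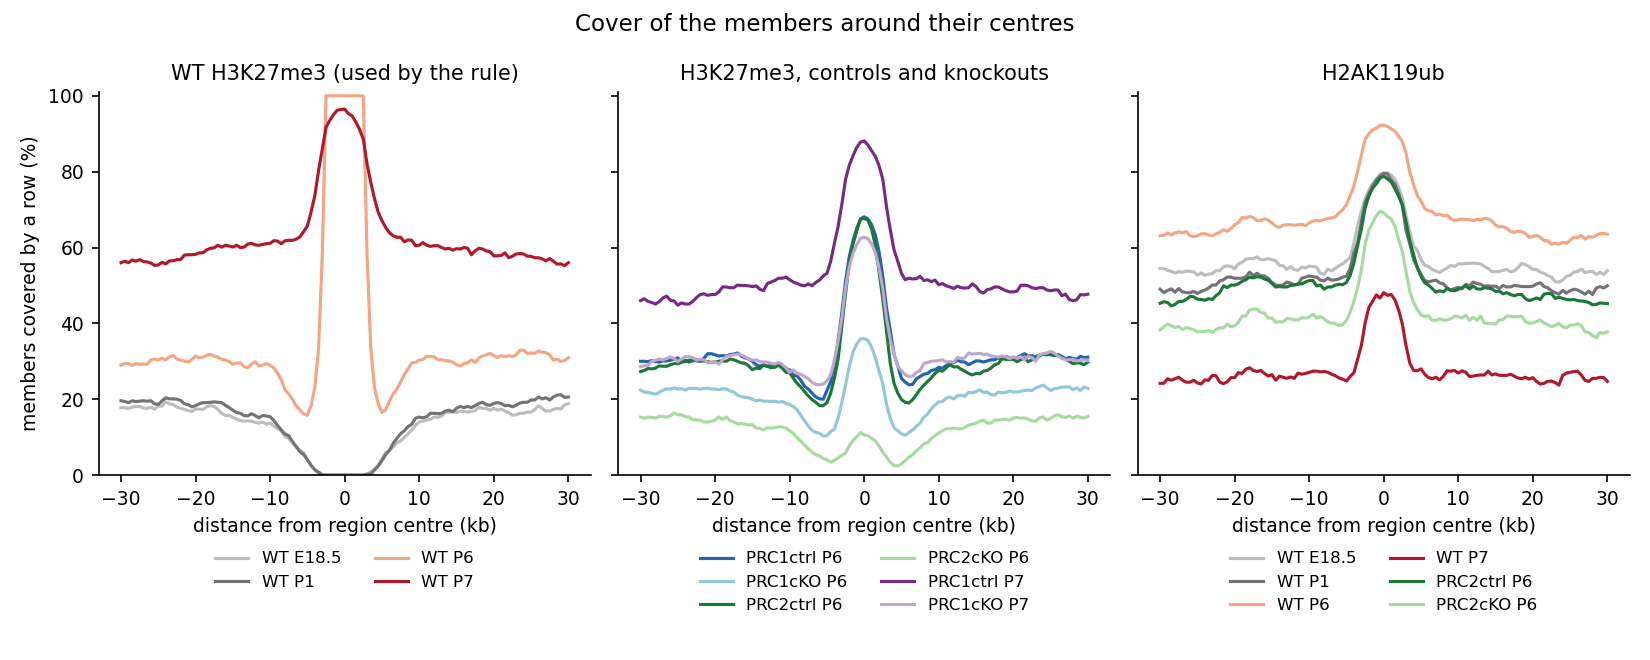
Share of the 1390 regions (vertical axis, %) that a row covered at each distance from the region's centre (horizontal axis, kb), 1 line per list; the left panel shows the 4 WT H3K27me3 lists that the rule used, the middle panel the other H3K27me3 lists and the right panel H2AK119ub. At the centre PRC1ctrl P7 covered 88.1% and PRC2cKO P6 10.6%, while WT P6 H2AK119ub covered 92.3%.

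H2AK119ub was already present at most of these places before H3K27me3 was called there. WT rows of H2AK119ub were found at 1209 regions at E18.5 (87.0%, 85.1 to 88.7%), at 1205 at P1 (86.7%, 84.8 to 88.4%), at 1327 at P6 (95.5%, 94.2 to 96.5%) and at 1026 at P7 (73.8%, 71.4 to 76.1%). The same lists held 75.1%, 77.4%, 80.1% and 62.0% of all same-width P6 rows. In 1286 regions (92.5%) the mark was found at E18.5 or P1, and in 928 (66.8%) at all 4 stages. Over all same-width rows these shares were 82.2% and 53.8%, and over long-standing rows 89.1% and 62.6%. At 68 regions (4.89%) H2AK119ub appeared at P6 without an earlier row, against 4.17% of all same-width rows. At 31 (2.23%) no WT list had it, against 11.4%.

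The H2AK119ub rows were wider than the regions. At E18.5 the row over a region had a median of 14.2 kb, at P6 23.1 kb and at P7 3.57 kb, and it held the whole region in 57.3%, 77.0% and 8.38% of cases. The list of P7 differed as a whole, with 244.2 Mb covered against 605.3 to 728.3 Mb in the other 3 WT lists of this mark. When each list was trimmed to that length by total signal, a choice made after the data were seen, the shares fell to 30.8% at E18.5, 36.5% at P1 and 40.7% at P6, below the 73.8% at P7. The order of the stages therefore depends on the lists' thresholds.

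The rows that were absent before birth and not found at P7 carried less of this mark, with 34.5% at E18.5, 38.7% at P1, 44.6% at P6 and 13.1% at P7. The rows marked before birth and gone at P7 were similar, at 34.6%, 40%, 36.6% and 16.9%. Long-standing rows were at 82.8%, 84.5%, 87.7% and 70.5%. To set like against like, rows were also limited to 5 to 10 kb and to the middle 50% of the regions' signal per kb (3793 to 5415), again after the data were seen. Within these limits 638 new regions had H2AK119ub in 86.8% at E18.5 and 95.5% at P6, and 2998 long-standing rows in 60.1% and 69.4%.

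**Figure D2:**
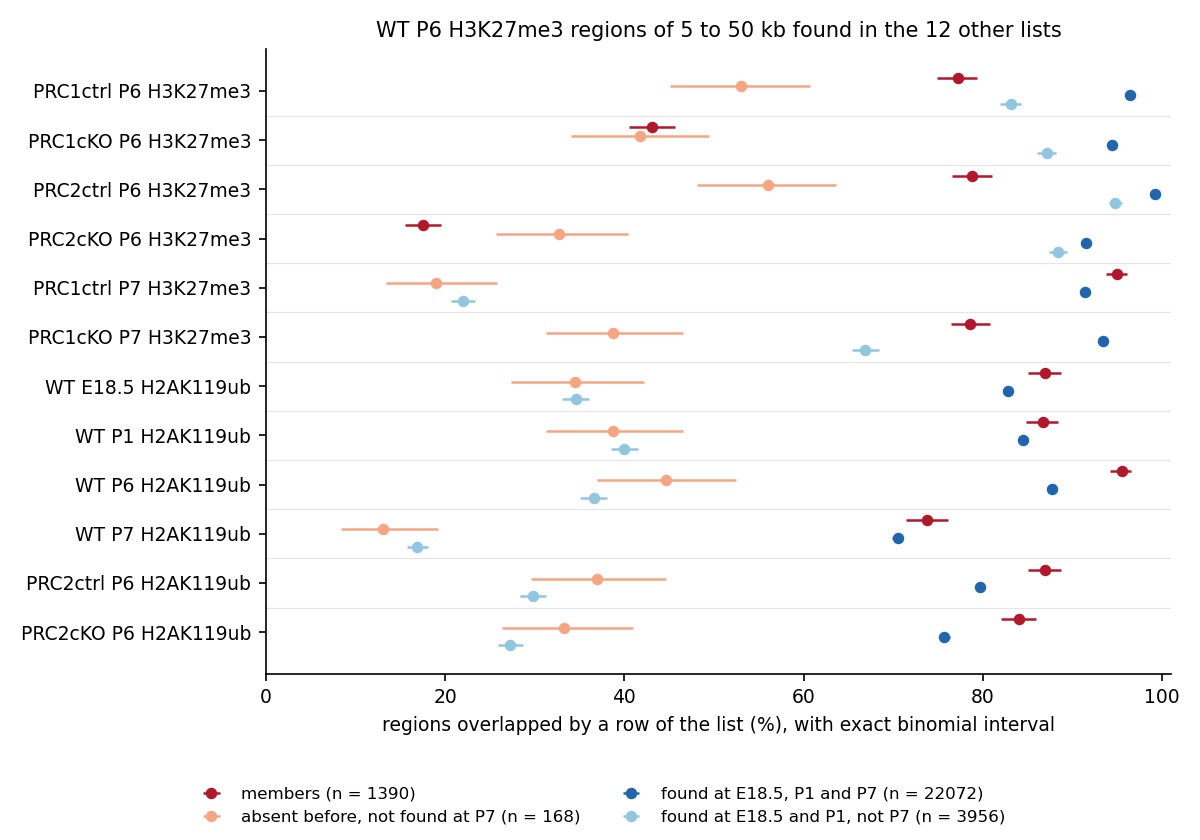
Share of WT P6 H3K27me3 rows found in each of the 12 lists that the rule did not use (horizontal axis, %), with points for 4 classes of rows and bars for the exact 95% binomial interval, which covers counting error only. The new regions, labelled members, stand at 17.5% in PRC2cKO H3K27me3 and 84.0% in PRC2cKO H2AK119ub.

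In oocytes with the PRC2cKO genotype few of the regions had H3K27me3. A row was found at 243 of 1390 regions (17.5%, 15.5 to 19.6%), against 84.2% of all same-width P6 rows and 91.5% of long-standing rows. Of the 1096 regions found in PRC2ctrl, 233 (21.3%, 18.9 to 23.8%) were also found in PRC2cKO, where the share over all same-width rows was 86.1%. Rows covered 8.13% of a region's length in PRC2cKO and 56.6% in PRC2ctrl on average. The row at a region had a median width of 3.26 kb in the knockout and 5.80 kb in the control.

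Rows of like width and signal were compared next. Within the limits above, 84 of 529 new regions found in PRC2ctrl (15.9%, 12.9 to 19.3%) were found in PRC2cKO, against 67.0% of all rows and 72.3% of long-standing rows. The rows that were also new at P6 but not found at P7 lay between, at 15 of 41 (36.6%, 22.1 to 53.1%). At the regions' centres the share covered in PRC2cKO was 10.6%, at 5 kb 3.52%, at 10 kb 11.4% and at 30 kb 15.4%. In PRC2ctrl it was 67.7%, 19.5%, 27.3% and 28.6%. The centres thus stood above the flank at 5 kb in both lists, and below the share at 30 kb in the knockout only. In WT E18.5, where the rule leaves the regions bare, the share was 0 at the centre and 18.3% at 30 kb. The PRC2cKO list covered 428.6 Mb against 558.4 Mb in its control. With the control trimmed to that length, 28.1% of the regions were found in PRC2ctrl and 17.5% in PRC2cKO, and 37.4% of the control's were also in the knockout, against 95.3% for long-standing rows. With the upper 50% of each list by total signal the share was 5.40%, and with at least 50% of the region covered in both lists 9.15%.

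H2AK119ub was largely found where H3K27me3 was not. PRC2ctrl had it at 1209 regions (87.0%, 85.1 to 88.7%) and PRC2cKO at 1168 (84.0%, 82.0 to 85.9%), against 72.2% and 68.5% of all same-width rows. Of the 863 regions with H3K27me3 in PRC2ctrl and none in PRC2cKO, 758 (87.8%, 85.5 to 89.9%) had H2AK119ub in PRC2cKO. Chosen in the same way, 73.2% of all same-width rows and 74.7% of long-standing rows had it. The covered length was less, 64.4% of a region in the knockout against 74.2% in the control on average, and the row over a region had a median of 9.18 kb against 14.4 kb. These lists covered 398.2 Mb and 498.4 Mb, and with both trimmed to the shortest list of the mark the order turned, 45.9% in PRC2ctrl and 54.2% in PRC2cKO.

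PRC1cKO oocytes had H3K27me3 at fewer of the regions than their control at P6 and at most of them at P7. At P6 rows were found at 599 regions (43.1%, 40.5 to 45.7%), against 88.6% of all same-width rows and 94.4% of long-standing rows. Of the 1073 regions found in PRC1ctrl, 551 (51.4%, 48.3 to 54.4%) were found in PRC1cKO, against 92.2% over all same-width rows. The PRC1cKO and PRC1ctrl lists of P6 covered 530.6 and 528.4 Mb. With both trimmed to the shortest H3K27me3 list the share of the control's regions was 25.5%, with the upper 50% of each list 24.9%, and in rows of 5 to 10 kb and like signal it was 48.1%, against 86.0% for long-standing rows. The rows new at P6 and not found at P7 had a like share, 47 of 89 (52.8%, 41.9 to 63.5%), and 53.6% at like width and signal.

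At P7, PRC1cKO had rows at 1093 regions (78.6%, 76.4 to 80.8%), against 87.5% of all same-width rows. Of the 1321 found in PRC1ctrl P7, 1054 (79.8%, 77.5 to 81.9%) were in PRC1cKO, against 93.0% over all same-width rows. In rows of 5 to 10 kb and like signal the gap was smaller: PRC1cKO had rows at 79.3% of the regions, 74.4% of all rows and 80.6% of long-standing rows. Of those found in PRC1ctrl P7 it had 79.8% (76.4 to 82.9%), 82.0% and 83.3%. Of the 791 regions missing in PRC1cKO at P6, 560 (70.8%, 67.5 to 73.9%) were found in PRC1cKO at P7, against 62.7% of all same-width rows missing there at P6 and 69.5% of long-standing ones. The P7 rows of the knockout were narrower, with a median of 6.25 kb over a region against 13.7 kb in the control, and the mean covered length was 55.8% against 82.5%. The lowest total signal of a row was 5094 in the PRC1cKO P7 list, 7218 in the PRC1ctrl P7 list and 10307 in the PRC1cKO P6 list, on scales that may differ between lists, and its part in these shares was not tested. H2AK119ub was profiled in WT and PRC2 oocytes, not in the PRC1 groups used here.

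Some regions were missing in both knockouts. Of the 923 regions found in both P6 controls, 359 (38.9%, 35.7 to 42.1%) were missing in both knockouts, 346 (37.5%) were found in PRC1cKO only, 47 (5.09%) in PRC2cKO only and 171 in both. Among long-standing rows found in both controls 1.56% were missing in both knockouts, and 3.94% among all same-width rows. In rows of 5 to 10 kb and like signal the shares missing in both were 44.3% for new regions and 7.20% for long-standing rows. The rows new at P6 and not found at P7 had like shares, 17 of 53 (32.1%, 19.9 to 46.3%), and 40% at like width and signal. All 6 other H3K27me3 lists held 150 of the 1390 regions (10.8%), against 61.7% of all same-width rows and 77.4% of long-standing rows. They held 1.79% of the rows new at P6 and not found at P7, and 14.9% of those marked before birth and gone at P7.

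**Figure D3:**
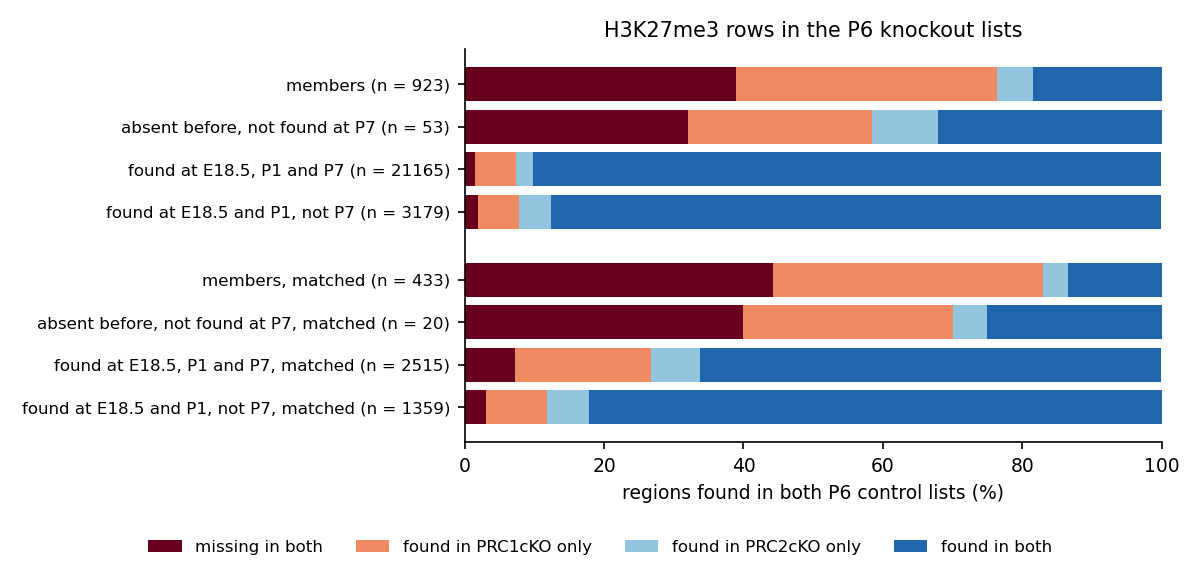
For P6 rows found in both P6 control lists, the share (horizontal axis, %) missing in both knockout lists, found in 1 of them or found in both, in 4 classes of rows; the lower 4 bars, labelled matched, are rows of 5 to 10 kb with a signal per kb in the middle 50% of the new regions, labelled members. New regions missing in both knockouts made up 38.9%, and long-standing rows 1.56%.

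Among the 1390 regions, 352 (25.3%) were found in all 3 control lists and in neither P6 knockout. Of these, 256 (72.7%) were found in PRC1cKO at P7. Neither count was made for other rows. Of rows missing in PRC1cKO at P6, without the other conditions, 62.7% of all same-width and 69.5% of long-standing ones were found there at P7. The widest of the 352 lay at the starts of Cend1, Pidd1 and Slc25a22 (chr7:141425811-141446221, 20.4 kb). Its cover was 64.5% in PRC1ctrl P6, 89.4% in PRC2ctrl, 33.6% in PRC1ctrl P7 and 0 in all 3 knockout lists of H3K27me3, with 93.5% of H2AK119ub in PRC2cKO. Next came the region of Ephb3, described below, and 1 inside Vav2, a guanine nucleotide exchange factor (chr2:27312397-27330543, 18.1 kb), covered over 70.1% in PRC1ctrl P6, 100% in PRC2ctrl and 16.0% in PRC1ctrl P7. Only 1 region, between genes at chr2:129649439-129655916 (6.48 kb), was covered over at least 90% in all 8 H3K27me3 lists of P6 and P7, and H2AK119ub covered 60.5% of it at E18.5, none at P1, all of it at P6 and none at P7.

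Regions with a gene start within 1 kb had H2AK119ub more often than the rest. This split was not made for other rows, so whether it is particular to these regions was not tested. Some of the 193 were counted by an annotated gene end, which may be the 3′ end. In PRC2cKO H3K27me3 was found at 41 of 193 with a start (21.2%, 15.7 to 27.7%) and at 202 of 1197 without (16.9%, 14.8 to 19.1%). In PRC1cKO the shares were 51.3% (44.0 to 58.5%) and 41.8% (39.0 to 44.6%) at P6, and 73.6% and 79.4% at P7. WT P7 H2AK119ub was found at 92.7% (88.1 to 96.0%) and 70.8% (68.1 to 73.3%), and E18.5 H2AK119ub at 95.3% and 85.6%. In PRC1ctrl P6 H3K27me3 the shares were 89.6% (84.4 to 93.6%) and 75.2% (72.6 to 77.6%).

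Genes of 17 lists were then looked up, and 24 of the 1072 list genes in the annotation (2.24%) had a start or gene end within 1 kb of a region, each at a region of its own, against 1.04% of all protein-coding genes. Developmental signalling held 7 of 123 (Dll1, Fgfr2, Ntn1, Sfrp1, Smad6, Smad7 and Spry2), matrix proteins and proteases 5 of 109 (Adamts14, Col18a1, Lamc3, Loxl2 and Mmp11), and cell adhesion and axon guidance 4 of 88 (Cdh3, Ephb3, Nlgn2 and Sema3f). Neuronal channels and receptors held 3 of 120 (among them Cacng4 and Kcnn2), genes imprinted through maternal H3K27me3 2 of 38 (Enc1 and Smoc1), canonical imprinted genes 1 of 44 (Ppp1r9a) and spermatogenesis 1 of 40 (Catsper4). Developmental transcription factors, the classical Polycomb targets, held 1 of 153 (0.654%, Nr5a2), near the 1.04% of all protein-coding genes. Of the 153, 146 had a start or end at some P6 row. No gene of the lists for oocyte growth (52), meiotic prophase (40), germline identity (35), granulosa and stroma (34), blood and endothelium (30), Polycomb proteins (42), cell cycle inhibitors (37), growth signalling (46) or ribosomal proteins (54) was at a region. In the same order 11, 5, 14, 30, 25, 9, 11, 19 and 1 of these genes had a start or end at some P6 row. At a share of 1.04% a list of this size can hold no gene without any avoidance, which was not tested.

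All 24 of these regions were found in PRC1ctrl P6, PRC2ctrl P6 and PRC1ctrl P7 H3K27me3, and all 24 had H2AK119ub in the E18.5, P1 and P6 WT lists. Of the 193 regions with a gene start, 89.6%, 84.5% and 95.3% were found in those controls. The same H2AK119ub lists had rows at 95.3%, 96.4% and 98.4% of the 193. In the knockouts 13 of 24 had no H3K27me3 row in PRC2cKO, 11 none in PRC1cKO P6 and 9 none in PRC1cKO P7. Rows were thus found at 11, 13 and 15 of the 24. Over all 1390 regions the shares found in these lists were 17.5%, 43.1% and 78.6%, and over all same-width rows 84.2%, 88.6% and 87.5%. Missing in both P6 knockouts were 9, and 6 of these, at Col18a1, Enc1, Ephb3, Sema3f, Smad7 and Smoc1, were missing in PRC1cKO P7 as well. Of the 923 regions found in both P6 controls, 38.9% were missing in both P6 knockouts, against 3.94% of all same-width rows so chosen. Of the 352 regions found in the 3 controls and in neither P6 knockout, 72.7% were found in PRC1cKO P7. H2AK119ub in PRC2cKO was found at all 24, over at least 53.5% of the region, and at 98.4% of the regions with a gene start.

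**Figure D4:**
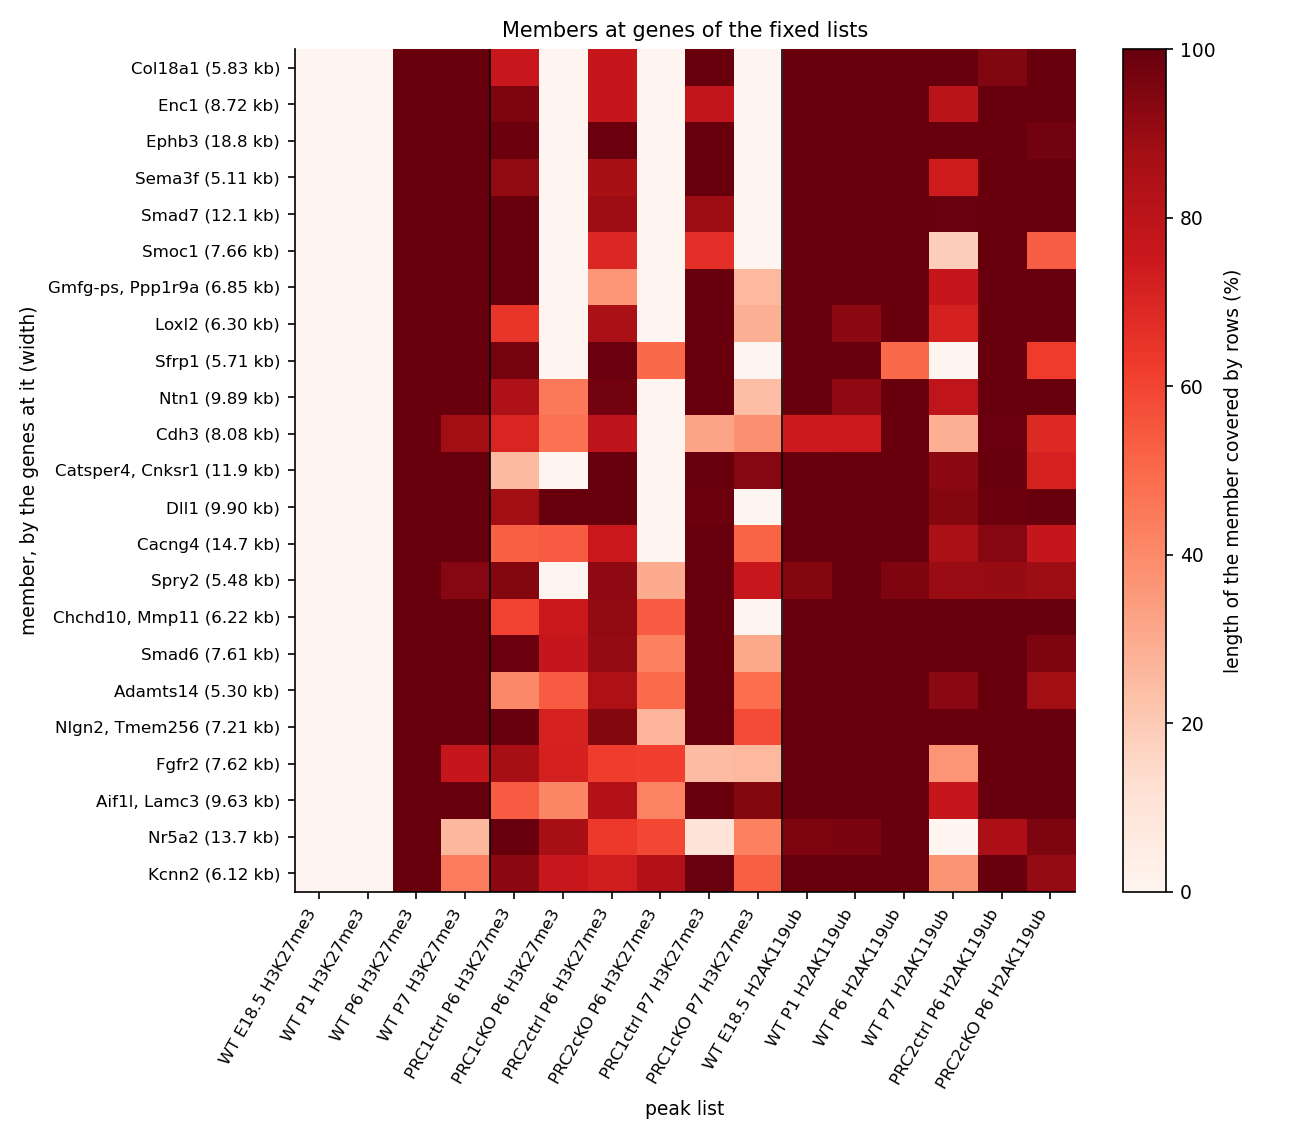
Length covered (colour, 0 to 100%) of 23 of the regions at list genes (vertical axis, with the width in kb) in each of the 16 lists (horizontal axis; black lines part the WT H3K27me3 lists that the rule used, the other H3K27me3 lists and H2AK119ub). Rows are ordered by the summed cover in the 3 knockout H3K27me3 lists, and the upper 6 regions are at 0 in all 3 of these.

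The receptor gene Ephb3 had the largest region among the list genes. Ephb3 encodes a receptor tyrosine kinase for ephrin-B ligands, and the region (chr16:21203834-21222647, 18.8 kb) took in 96.5% of the gene. H3K27me3 covered 98.6% of it in PRC1ctrl P6, 99.1% in PRC2ctrl and 100% in PRC1ctrl P7, and 0 in PRC1cKO P6, PRC2cKO and PRC1cKO P7. H2AK119ub covered 97.4% in PRC2cKO and all of it in the 4 WT lists. No replicate error is known for these values, so the gap between control and knockout lists at this region was not tested. This region was among 6 of the 24 regions at list genes with no H3K27me3 row in any knockout list.

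Both regions at genes imprinted through maternal H3K27me3 were among the 6 of 24 at list genes with no H3K27me3 row in any knockout list. Of all regions found in both P6 controls, 38.9% were missing in both P6 knockouts. Enc1 encodes an actin-binding kelch protein, and its region (chr13:97237981-97246704, 8.72 kb) held 46.9% of the gene. It was covered over 95% in PRC1ctrl P6, 76.9% in PRC2ctrl and 78.0% in PRC1ctrl P7, and over 0 in the 3 knockout lists. Smoc1 encodes a secreted calcium-binding matrix protein, and its region (chr12:81183780-81191434, 7.66 kb) lay over 1 end of the gene, 1.65% of its length, and beyond it. It was covered over 100%, 69.2% and 66.7% in the same controls and over 0 in the 3 knockout lists. The WT P6 signal per kb was 3391 at the Smoc1 region, below the regions' lower quartile of 3793, and 4798 at the Enc1 region. H2AK119ub covered all of both regions at E18.5, P1 and P6, and at P7 80.2% at Enc1 and 18.8% at Smoc1.

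Signalling genes differed among themselves. Dll1 had a region over nearly the whole gene (chr17:15367695-15377594, 9.90 kb, 96.4% of the gene), covered over 88.0% in PRC1ctrl P6, 100% in PRC1cKO P6, 100% in PRC2ctrl, 0 in PRC2cKO, 98.8% in PRC1ctrl P7 and 0 in PRC1cKO P7. PRC1cKO at this gene was thus as covered as its control at P6 and bare at P7. Spry2 (chr14:105892326-105897807, 5.48 kb, 92.2% of the gene) had the reverse order, with 93.9% in PRC1ctrl P6, 0 in PRC1cKO P6, 91.5% in PRC2ctrl, 29.8% in PRC2cKO, 100% in PRC1ctrl P7 and 75.4% in PRC1cKO P7.

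The inhibitory SMAD genes, which damp TGF-beta and BMP signals, parted as well. At Smad7 (12.1 kb, chromosome 18, region starting 0.903 kb into the gene from its end in the table) the knockout lists had 0 and the controls 100%, 88.5% and 89.4%. At Smad6 (7.61 kb) PRC1cKO P6 had 77.0% against 99.2% in its control, PRC2cKO 42.6% against 90.4%, and PRC1cKO P7 30.7% against 100%. Sfrp1, a secreted Wnt antagonist, had 0 in PRC1cKO at P6 and P7 and 50.2% in PRC2cKO. Ntn1, the guidance cue netrin-1, had 45.4% in PRC1cKO P6, 0 in PRC2cKO and 24.2% in PRC1cKO P7.

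Fgfr2, a fibroblast growth factor receptor, had rows in all P6 and P7 lists of H3K27me3, with 71.5% in PRC1cKO P6, 61.0% in PRC2cKO and 25.6% in PRC1cKO P7 against 86.4%, 61.9% and 24.8% in the controls. Among the matrix and adhesion genes, Col18a1 (collagen XVIII) and Sema3f (a secreted semaphorin) were at 0 in the 3 knockout lists, and their controls lay between 76.0% and 100%. Loxl2, a lysyl oxidase that cross-links collagen, was at 0 in both P6 knockouts and at 28.8% in PRC1cKO P7. Adamts14, Mmp11, Lamc3 (a laminin chain) and Nlgn2 had rows in both P6 knockouts, and Mmp11 had 0 in PRC1cKO P7. Cdh3, P-cadherin, had 47.5% in PRC1cKO P6 and 0 in PRC2cKO.

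Nr5a2, a nuclear receptor gene, had the least H3K27me3 cover in WT and PRC1ctrl P7 among the list genes. Its region (chr1:136944757-136958468, 13.7 kb) was covered over 25.9% in WT P7 and 9.94% in PRC1ctrl P7 and over 42.7% in PRC1cKO P7, and H2AK119ub went from 100% at P6 to 0 at P7. In P6 H3K27me3 it was covered over 100% in PRC1ctrl, 85.6% in PRC1cKO, 63.1% in PRC2ctrl and 59.2% in PRC2cKO. The potassium channel gene Kcnn2 likewise had rows in every P6 and P7 list, with 83.2% in PRC2cKO. Cacng4, an auxiliary subunit of AMPA receptors, had 53.9% in PRC1cKO P6 and 0 in PRC2cKO, and Catsper4, a sperm calcium channel gene, 0 in both P6 knockouts. Ppp1r9a, which encodes the actin-binding protein neurabin and is the canonical imprinted gene of the set, had 0 in both P6 knockouts and 25.5% in PRC1cKO P7.

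Some long genes, named after the counts were seen, held several regions. Asic2, an acid-sensing ion channel gene, had 8, Ephb1, another ephrin receptor gene, 7, Zfp827 6 and Rimbp2, a presynaptic scaffold gene, 5, out of 28, 11, 7 and 8 same-width P6 rows at these genes. Over the 10 genes with 4 or more regions (50 regions, partly neighbours), 36 were found in PRC1ctrl P6, 15 in PRC1cKO P6, 43 in PRC2ctrl, 8 in PRC2cKO, 50 in PRC1ctrl P7 and 36 in PRC1cKO P7. In the same order these lists had 77.2%, 43.1%, 78.8%, 17.5%, 95% and 78.6% of all 1390 regions. H2AK119ub was found at 47 of the 50 in PRC2cKO and 48 in PRC2ctrl, against 84.0% and 87.0% of all regions. At Ephb1, 5 of 7 regions were in PRC1ctrl P6, 1 in PRC1cKO P6, 6 in PRC2ctrl, 0 in PRC2cKO, 7 in PRC1ctrl P7 and 4 in PRC1cKO P7. At Asic2 these counts of 8 were 5, 0, 6, 1, 8 and 6. Tns3, a tensin gene with 4 regions, had all 4 in PRC1cKO P6 and 2 in PRC2cKO.

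Of the 6 regions with the highest signal per kb at WT P6, all 6 had H3K27me3 rows in PRC1cKO P6 and 5 of 6 in PRC2cKO. The first, inside the zinc finger gene Zfp462 (chr4:55007507-55015806, 18197 per kb), was covered over 80.5% in PRC1ctrl P6, 87.8% in PRC1cKO P6, 96.8% in PRC2ctrl and 41.7% in PRC2cKO. The next, at St6gal1, a sialyltransferase gene (15945 per kb), had 87.8% in PRC1cKO P6 and 72.5% in PRC2cKO. The region at chr19:7419793-7424964 had 0 in PRC2cKO and in PRC1cKO P7. The widest region (21.6 kb) lay inside Mbp, the gene of myelin basic protein, and had 63.2% in PRC1cKO P6 and 16.3% in PRC2cKO against 88.4% and 100% in the controls.

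The lists differed as wholes in ways that bear on every share above. They held 49615 to 83994 rows and covered 244.2 to 728.3 Mb, and the lowest total signal of a row ran from 3754 to 20369, on scales that may differ between lists. Read depth is unknown from these files. Of the oocyte markers 2 of 12 had a WT P6 H3K27me3 row at a start or end (Lhx8 and Zp1), of the granulosa markers 10 of 10 and of the blood and endothelial markers on autosomes 4 of 7, and none of these rows was a new region. A histone mark does not measure expression or cell content, so this only describes the mark at those genes.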

How the data were processed

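The 16 peak lists, 1 per group of 2 samples, were used as deposited. The authors deposited rows with a chromosome, a start, an end and a total signal, in GRCm38 (mm10) coordinates; the highest signal in each row was not used here. The submitters' processing notes name Bowtie2, SAMtools and deepTools, with Trim Galore (0.6.10) and Picard (3.0.0). Which program called the peaks, at what threshold, whether S2 reads set the scale and how the paired samples became 1 list is not given in the sources used here, so signals were used only within a list, and the lowest total signals are set side by side without a common scale.

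Overlaps were computed with numpy 2.4.6 and pandas 2.3.3 and tested on simulated lists. Shares carry exact Clopper-Pearson 95% intervals (scipy 1.17.1), which cover counting error only, and neighbouring regions are not independent. Classes of same-width WT P6 rows served as comparison. Gene starts and promoter bases came from RefSeq tables of GRCm38.p6 (16457 of 20665 autosomal protein-coding genes with a start, the other 4208 by either gene end, within 1 kb). Motifs were searched by their letters on both strands of the 300-base promoters of the table. Exons and introns were not used here. Named in the text are list genes within 1 kb of a region, the 6 regions of highest signal per kb and of greatest width, the 8 widest found in the 3 controls and in neither P6 knockout, those covered over at least 90% in all P6 and P7 H3K27me3 lists, and regions at the width limits. Zfp827, Asic2, Ephb1, Rimbp2 and Tns3 were named after their counts were seen. The regions, gene lists and comparisons were chosen with earlier results of these data known. 1 gene of the lists is counted but not reported here by name.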

Additional observations from a re-analysis of the deposited data

How the results depend on the processing

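With 1 list per group, leaving out a replicate was not possible, and no value has a replicate check. No paired analysis was possible because each list stands for both samples of its group. Of 90 alternatives, 32 left a value within its 95% interval (for the number of regions, within 1.5 times) and 58 moved it; except where a value below shows it, the cause was not tested. The number of regions was 3235 when the E18.5, P1 and P7 lists were reduced to their upper 50% by total signal and 98 at 10 kb or wider. The order of control and knockout for H3K27me3 held under every alternative run, and that for H2AK119ub in the PRC2 groups turned with equal covered length.

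Values below follow the order PRC1ctrl P6, PRC1cKO P6, PRC2ctrl, PRC2cKO, PRC1ctrl P7 and PRC1cKO P7 for H3K27me3, then WT E18.5, P1, P6, P7, PRC2ctrl and PRC2cKO for H2AK119ub. With at least 50% of the region covered, the shares found were 64.9%, 32.9%, 62.9%, 6.47%, 86.4% and 57.8%, then 80.9%, 79.6%, 92.7%, 43.7%, 77.8% and 66.4%. With each other list reduced to its upper 50% by total signal they were 46.5%, 14.2%, 40%, 2.73%, 85.8% and 58.3%, then 73.2%, 73.5%, 87.1%, 53.9%, 76.0% and 69.1%. In regions of 10 kb or wider they were 94.9%, 48.0%, 94.9%, 24.5%, 99.0% and 81.6%, then 99.0%, 99.0%, 100%, 90.8%, 99.0% and 95.9%. With lists trimmed to equal covered length of 428.6 Mb for H3K27me3 and 244.2 Mb for H2AK119ub, chosen after seeing the data, they were 47.8%, 15.0%, 28.1%, 17.5%, 89.4% and 71.9%, then 30.8%, 36.5%, 40.7%, 73.8%, 45.9% and 54.2%. Trimming by total signal takes narrow rows first.

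Without regions that had an E18.5 or P1 row within 5 kb, the share in PRC1ctrl P6 was 79.5%, and H2AK119ub was at 96.7% in WT P6, 77.3% in WT P7 and 86.6% in PRC2cKO. With P7 rows over at least 50% of the region, PRC1ctrl P7 was at 96.1%. In regions of 5 to 10 kb and middle signal, also chosen after seeing the data, PRC1cKO P6 was at 40.3%, PRC2ctrl at 82.9% and PRC2cKO at 14.1%. The share with a gene start was 18.7% with a window of 5 kb and 18.4% in regions of 10 kb or wider. Read depth is unknown, so regions missing from a list may lie below its threshold.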
